A study of Mus musculus with 65 samples.

Results

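The genes described here are 9 genes of serotonergic neurons, Tph2, Slc6a4, Fev, Lmx1b, Gata2, Gata3, Htr1a, Htr1b and Maob, among 49670 gene IDs in a table of read counts from mouse hindbrain. They are a list of names, and all 9 were found in the table. RNA was sequenced in 65 libraries of cerebellum, medulla and pons from C57BL/6J mice. The mice were wild type or carried an Atxn1 allele with an expanded CAG repeat, as a model of spinocerebellar ataxia. That allele is given as Atxn1[82Q] and called knockin here. The library titles mark the mice only as WT or SCA, and give neither the repeat length nor how the allele was made. Wild type mice had received vehicle. Knockin mice had received vehicle or an oligonucleotide that targets Atxn1 RNA (an antisense oligonucleotide, ASO). No wild type mice with the ASO were analysed here. The 3 groups each had 4 libraries of 18-week cerebellum, 3 of 18-week medulla, 3 of 18-week pons and 4 of 28-week pons. For 28-week medulla there were 8 libraries from wild type mice, 8 from knockin mice with vehicle and 7 from knockin mice with the ASO, divided over 2 batches named in the labels. Since the labels do not state whether libraries come from different mice, the p-values describe spread among libraries and no more.

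Serotonergic neurons have their cell bodies in the raphe nuclei along the midline of the brainstem, and the groups in the rostral pons and midbrain send axons to the forebrain while those in the medulla project mainly to the spinal cord and brainstem. They make serotonin from tryptophan, load it into vesicles, release it, and take it back up through a transporter in their own membrane. A cascade of transcription factors sets up this identity in the embryo, and part of it stays on in the adult to keep the synthesis and transport genes active. The cerebellum receives serotonergic axons but holds no raphe nucleus.

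The 9 genes fall into 4 roles. Tph2 (ENSMUSG00000006764, chromosome 10, 115078641 to 115185022 on GRCm38, minus strand) encodes tryptophan hydroxylase, the rate-limiting enzyme of serotonin synthesis in neurons, and Slc6a4 (ENSMUSG00000020838, chromosome 11, 76998603 to 77032340, plus strand) the serotonin reuptake transporter. Fev (ENSMUSG00000055197, chromosome 1, 74881509 to 74885419, minus strand), also called Pet-1, Lmx1b (ENSMUSG00000038765, chromosome 2, 33560965 to 33640511, minus strand), Gata2 (ENSMUSG00000015053, chromosome 6, 88193891 to 88207032, plus strand) and Gata3 (ENSMUSG00000015619, chromosome 2, 9857078 to 9890034, minus strand) encode transcription factors. Fev marks serotonergic neurons almost exclusively within the brain, whereas the other transcription factors are also made by other hindbrain neurons. Htr1a (ENSMUSG00000021721, chromosome 13, 105443639 to 105448122, plus strand) and Htr1b (ENSMUSG00000049511, chromosome 9, 81628291 to 81633828, minus strand) encode inhibitory serotonin receptors that act as autoreceptors on serotonergic neurons and also sit on many of their targets. Maob (ENSMUSG00000040147, chromosome X, 16709282 to 16817366, minus strand) encodes monoamine oxidase B, which breaks down monoamines and is made in serotonergic neurons and in astrocytes. An exon of Htr1b overlaps the antisense gene D430036J16Rik, which held 7127 counts over all libraries against 86579 for Htr1b, and the sources used here do not give the strand setting of the counting. Exons of Gata3 overlap Gm13256 and 9230102O04Rik, which held 7 and 556 counts against 27577 for Gata3.

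Library totals ranged from 49.2 to 119.1 M counts. Levels are given in CPM, read counts relative to the scaled total of the library. The targeted gene went against the label in a few libraries. At 18 weeks the libraries labelled wild type replicate 3 held 15.3 CPM of Atxn1 (medulla) and 16.5 CPM (pons), below all other wild type libraries of the same tissue (33.4 CPM or more), and at 39.0 and 51.0 CPM in those labelled ASO replicate 2. At 28 weeks the libraries labelled ASO replicate 2 held 49.4 CPM of Atxn1 in medulla and 51.0 CPM in pons, while the other ASO libraries held 25 to 34.0 CPM and 25.9 to 35.7 CPM. How far back along the brainstem a piece reached was read from a Hox level, the mean log2 CPM of up to 15 Hox genes that are active in the medulla and less so towards the pons. Medulla libraries at 28 weeks mostly lay between 2.82 and 4.18. Of the 23, 5 lay more than 1 log2 unit below the median of that tissue and age: wild type replicate 5 at -0.41, knockin vehicle replicate 8 at -0.20, and ASO replicates 3, 6 and 7 at 1.83, -0.23 and -0.61. Pons libraries at 28 weeks lay between -0.30 and 1.60, and the values of 4 of those 5 medulla libraries fell in or below that range. The level was computed within each tissue and age, over 15 genes in medulla and 12 in pons at 28 weeks. The 2 tissues are therefore not on 1 scale, and this likeness in value is only rough.

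In wild type mice the genes formed a steep order when levels were divided by exon length. In pons at 28 weeks Tph2 led with 74.2 ± 13.0 CPM per kb (SD, n = 4), followed by Slc6a4 with 31.2 ± 6.44 CPM per kb and Maob with 21.6 ± 2.53 CPM per kb. Htr1a came next with 6.57 ± 0.560 CPM per kb, then Htr1b with 3.89 ± 0.0383 CPM per kb, Fev with 3.77 ± 0.604 CPM per kb and Gata3 with 3.46 ± 0.452 CPM per kb, and these last 3 had overlapping ranges. Gata2 and Lmx1b, at 2.27 ± 0.172 and 2.23 ± 0.264 CPM per kb, did not differ beyond their spread. In medulla at 28 weeks Tph2 stood at 27.2 ± 20 CPM per kb (SD, n = 8), Maob at 17.0 ± 2.95 CPM per kb and Slc6a4 at 10.8 ± 8.25 CPM per kb, and their ranges overlapped. In cerebellum at 18 weeks Maob at 11.4 ± 1.47 CPM per kb and Htr1b at 5.44 ± 0.358 CPM per kb (SD, n = 4) led, and the other 7 genes were below 1 CPM per kb.

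Between wild type cerebellum and medulla at 18 weeks, 8 of the 9 genes were lower in cerebellum (adjusted p at most 0.0077, edgeR quasi-likelihood test with Benjamini-Hochberg adjustment over all genes), where 30% of all genes were called lower, 29.3% higher and 59.2% in either direction. A gene is called here when that adjusted p is under 0.05. Tph2 was 29.2-fold lower in cerebellum (log2 difference -4.87 ± 0.78, adjusted p = 0.001, edgeR) and Htr1a lower by a log2 difference of -6.08 ± 0.31 (adjusted p = 4e-08, edgeR). Htr1b was the exception, with 25.7 CPM in cerebellum and 21.0 CPM in medulla and a log2 difference of 0.26 ± 0.18 (adjusted p = 0.22, edgeR). Without medulla replicate 2 it was called, at 0.51 (adjusted p = 0.0075, edgeR). Against pons, where 56.1% of all genes were called, the other 8 genes were again lower in cerebellum, and Htr1b was higher by 0.45 ± 0.18 on the log2 scale (adjusted p = 0.045, edgeR). That last call was lost without any of 7 of the 10 wild type libraries, namely cerebellum replicates 1 to 4, medulla replicate 3 and pons replicates 1 and 3 (adjusted p from 0.061 to 0.17, edgeR).

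Pons and medulla of wild type mice differed less, and the result depended on which medulla libraries were used. The comparison has no batch term, since the pons libraries carry no batch label. At 28 weeks Tph2 averaged 214 CPM in pons and 78.2 CPM in medulla, a log2 difference of 1.46 ± 0.44 (adjusted p = 0.06, edgeR), and none of the 9 genes was called where 10.9% of all genes were (5.27% higher and 5.6% lower in pons), although 7 of the 9 had an unadjusted p under 0.05, as did 28.3% of all genes. Wild type medulla replicate 5, with a Hox level of -0.41, held 214 CPM of Tph2 against 31.9 to 97.3 CPM in the other 7. Without it 6 genes were called higher in pons: Tph2 (1.87, adjusted p = 0.00093), Slc6a4 (1.97, adjusted p = 0.00089), Fev (1.27, adjusted p = 0.0013), Gata3 (1.68, adjusted p = 0.00036), Gata2 (0.65, adjusted p = 0.0028) and Maob (0.44, adjusted p = 0.002), all edgeR log2 differences, in a fit that called 3487 of all genes against 2215 with it. Without medulla replicate 6 Htr1b was called lower in pons (-0.19, adjusted p = 0.045, edgeR). The libraries of both tissues with the same replicate number, 1 to 4, also carry the same number in their column names, and the labels do not say what it stands for. With the replicate number as a block all 9 genes were called, Tph2 with 1.96 (adjusted p = 0.0094, edgeR), 8 of them higher in pons and Htr1b lower by -0.20 (adjusted p = 0.026, edgeR), and 3084 of all genes were called. With only the medulla libraries of batch 1, all 9 genes were called as well, with or without the number in the column names as a block. The calls over all genes in those fits are not given here, so the count is not set against a share. At 18 weeks Gata3 was called, with 9.18 CPM in pons and 3.04 CPM in medulla (log2 difference 1.59 ± 0.32, adjusted p = 0.045, edgeR) where 0.833% of all genes were called. The Gata3 call was lost without the medulla and pons libraries labelled wild type replicate 3 (1.32, adjusted p = 0.23, edgeR), and without any of 7 of the 10 single libraries, namely cerebellum replicates 1, 2 and 4, medulla replicates 1 and 3 and pons replicates 1 and 3 (adjusted p from 0.056 to 0.15, edgeR).

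Within each tissue and age, Tph2 varied widely between libraries, and a small set of genes varied with it. Over the 53 libraries of medulla and pons, after the mean of each tissue and age was taken away, the log2 levels of Slc6a4 (Pearson r = 0.99) and Fev (r = 0.95) followed Tph2 most closely among the 9 genes. Htr1a (r = 0.74), Gata3 (r = 0.69), Gata2 (r = 0.64), Htr1b (r = 0.51), Maob (r = 0.40) and Lmx1b (r = 0.33) followed it less. The 5 other genes most like Tph2 were Gch1 (r = 0.96), whose enzyme starts the synthesis of the hydroxylase's cofactor tetrahydrobiopterin, Slc18a2 (r = 0.96), the vesicular monoamine transporter, Slc22a3 (r = 0.94), an organic cation transporter that takes up monoamines, Ddc (r = 0.93), the decarboxylase that makes serotonin from 5-hydroxytryptophan, and Gchfr (r = 0.92), the feedback regulator of the Gch1 enzyme. These are descriptions of likeness over libraries that share groups and dissections, and carry no test.

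Because Tph2, Slc6a4 and Fev moved together, the 250 bases before the RefSeq start of each (GRCm38.p6) are shown, 5′ to 3′ on the gene's strand. Capitals mark a GATA word of 6 letters on either strand, that is GATA with A or T before it and A or G after it, the letters that GATA factors such as Gata2 and Gata3 are known to bind. The windows are chr10:115185023-115185272 on the minus strand, chr11:76998347-76998596 on the plus strand and chr1:74885409-74885658 on the minus strand.
Tph2: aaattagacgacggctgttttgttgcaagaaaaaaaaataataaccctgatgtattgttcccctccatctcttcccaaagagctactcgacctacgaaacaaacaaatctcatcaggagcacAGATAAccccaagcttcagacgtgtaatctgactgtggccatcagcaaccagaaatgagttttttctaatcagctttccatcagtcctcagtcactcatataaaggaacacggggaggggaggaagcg
Slc6a4: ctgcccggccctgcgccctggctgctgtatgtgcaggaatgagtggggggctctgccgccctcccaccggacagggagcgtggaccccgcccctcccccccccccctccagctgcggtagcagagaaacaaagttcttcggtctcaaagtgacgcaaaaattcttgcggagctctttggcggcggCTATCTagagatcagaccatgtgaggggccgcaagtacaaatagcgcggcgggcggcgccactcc
Fev: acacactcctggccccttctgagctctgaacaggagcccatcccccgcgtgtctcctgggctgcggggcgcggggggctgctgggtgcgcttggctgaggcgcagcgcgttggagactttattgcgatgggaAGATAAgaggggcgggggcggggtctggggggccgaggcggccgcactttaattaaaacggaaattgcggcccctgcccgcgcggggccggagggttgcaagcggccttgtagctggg
Each window held 1 GATA word, 128 bases before the start in Tph2, 65 in Slc6a4, where it lies on the other strand and reads CTATCT, and 118 in Fev. A RefSeq window was given for 8 of the 9 genes, and these 3 were the ones that held a word. Of all 32851 windows of that length, 26.5% held 1 or more, and a match in letters does not show that a factor binds there.

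The question of the knockin comparison is how the expanded allele changes these genes. In medulla at 28 weeks, 5 of the 9 genes were lower in vehicle-treated knockin than in wild type mice and none was higher, where 9.99% of all genes tested were called lower, 9.28% higher and 19.3% in either direction. The genes of serotonin synthesis, reuptake and neuron identity fell most, Slc6a4 by 4.13-fold, Tph2 by 2.81-fold and Fev by 2.26-fold, and the receptors Htr1b and Htr1a fell by 1.85-fold and 1.74-fold. Lmx1b, Gata2, Gata3 and Maob were not called. The median log2 difference of the 9 genes was -0.82, and that of all genes tested 0.01. In bulk tissue, fewer neurons of a type and less RNA in each cannot be told apart.

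Tph2 ranged from 31.9 to 214 CPM in the 8 wild type medulla libraries, with a median of 58.5 CPM, and from 10.2 to 48.0 CPM in the 8 vehicle-treated knockin libraries, with a median of 21.3 CPM. Only the highest knockin libraries reached the lower wild type ones, and the highest wild type value came from replicate 5, the library low in Hox genes. The log2 difference was -1.49 ± 0.46 (adjusted p = 0.027, edgeR). Slc6a4 ranged from 17.9 to 137 CPM in wild type, with a median of 36.7 CPM, and from 3.61 to 20.1 CPM in knockin, with a median of 10 CPM. Here 2 of the 8 knockin libraries lay above the lowest wild type library. The log2 difference was -2.04 ± 0.49 (adjusted p = 0.0062, edgeR). Fev was scarce, at 1.36 to 6.24 CPM in wild type with a median of 2.44 CPM, and at 0.445 to 2.34 CPM in knockin with a median of 1.23 CPM (log2 difference -1.17 ± 0.34, adjusted p = 0.019, edgeR).

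The receptor genes separated the groups completely and varied little between libraries. The share of all genes that separate these groups in this way was not counted. Htr1a lay between 23.2 and 29.8 CPM in wild type, with a median of 27.2 CPM, and between 10.1 and 17.8 CPM in knockin, with a median of 15.7 CPM. All 8 knockin libraries were below all 8 wild type libraries, and the log2 difference was -0.80 ± 0.09 (adjusted p = 2.7e-06, edgeR). Htr1b lay between 16.8 and 23.0 CPM in wild type and between 7.80 and 13.5 CPM in knockin, with medians of 20.9 and 11.2 CPM, again without overlap (log2 difference -0.89 ± 0.10, adjusted p = 2.9e-06, edgeR). The medulla libraries low in Hox genes did not stand apart in either receptor gene: wild type replicate 5 held 28.8 CPM of Htr1a and 19.0 CPM of Htr1b.

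Among the other transcription factors, Lmx1b had medians of 8.66 CPM in wild type and 8.70 CPM in knockin, with a log2 difference of -0.10 (95% interval -0.42 to 0.21). Here and below the 95% intervals are approximate. They use the standard error and the normal distribution, and are narrower than the edgeR test implies. Gata2 differed by -0.26 (95% interval -0.56 to 0.04). Gata3, with medians of 4.41 and 3.02 CPM, differed by -0.82 ± 0.35 and did not pass the test (adjusted p = 0.11, edgeR). With the Hox level as a term of the model Gata3 was called lower, at -0.72 (adjusted p = 0.035, edgeR), which made 6 of the 9 genes. Maob differed by -0.04 (95% interval -0.28 to 0.20), with medians of 44.3 and 42.4 CPM, and its sign turned in 4 of the other settings (0.16 in batch 1, 0.06 without the libraries low in Hox genes, 0.04 with the midbrain level as a term and 0.03 without wild type replicate 5).

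**Figure D1:**
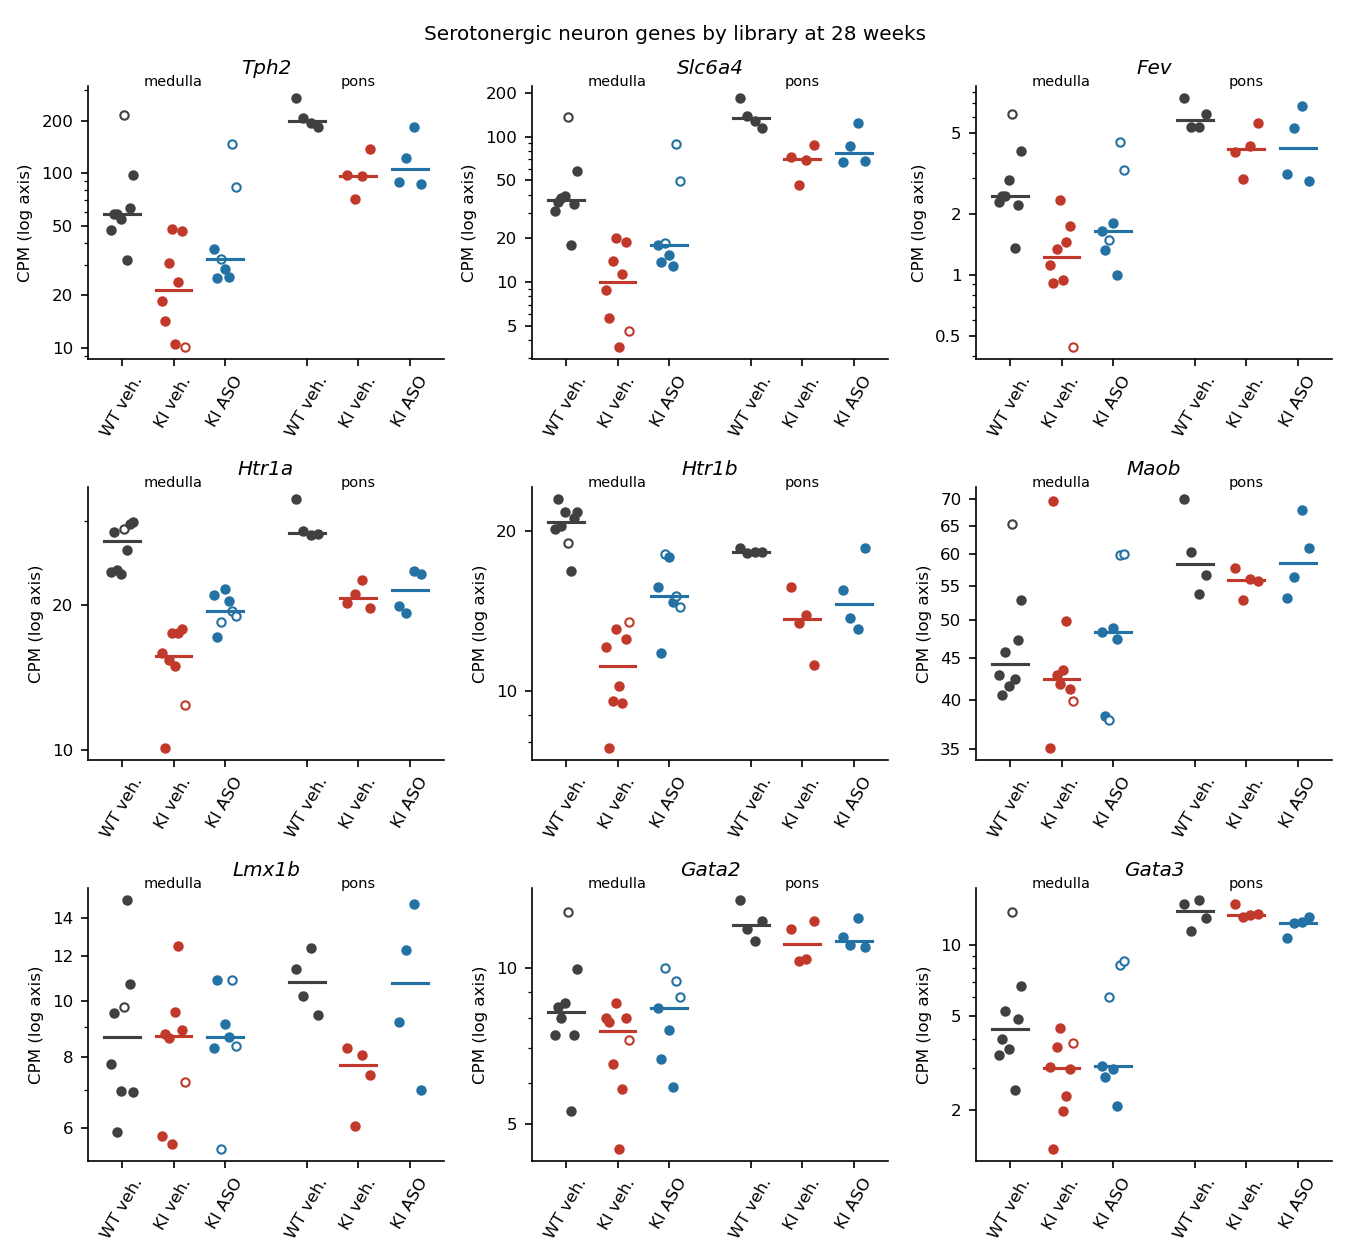
Level of each gene in CPM, on a log axis, in every medulla and pons library at 28 weeks, for wild type with vehicle (grey), knockin with vehicle (red) and knockin with ASO (blue); bars are medians and open points are the medulla libraries low in Hox genes. Htr1a and Htr1b show wild type and vehicle-treated knockin without overlap in both tissues, while the open points of Tph2 reach 214 CPM in wild type and 147 CPM in ASO-treated knockin medulla.

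All 5 calls in medulla held without the 5 libraries low in Hox genes, with log2 differences of -1.09 for Tph2 (adjusted p = 0.038), -1.62 for Slc6a4 (0.0054), -0.84 for Fev (0.017), -0.74 for Htr1a (4.5e-05) and -0.95 for Htr1b (1.5e-05), all edgeR. Within batch 1 alone Slc6a4 (-1.56, adjusted p = 0.025), Htr1a (-0.74, adjusted p = 0.016) and Htr1b (-1.0, adjusted p = 0.0053) were called, and Tph2 (-0.97, adjusted p = 0.14) and Fev (-0.82, adjusted p = 0.081) were not. Within batch 2 alone Htr1a (-0.86, adjusted p = 0.00022) and Htr1b (-0.78, adjusted p = 0.001) were called, while Tph2 (-2.16, adjusted p = 0.098), Slc6a4 (-2.69, adjusted p = 0.065) and Fev (-1.59, adjusted p = 0.1) had larger differences and did not pass. The Tph2 call was also lost without knockin vehicle replicate 5 (adjusted p = 0.055), 6 (0.054) or 8 (0.051), or without wild type replicate 5 (0.057). Markers of noradrenergic neurons moved with the same comparison, and of 4 midbrain markers 1 was called. The noradrenergic list (Dbh, Slc6a2 and Th) summed to 22.7 to 110 CPM in wild type and 12 to 39.9 CPM in knockin, and 2 of its 3 genes were called lower. The midbrain list (Slc6a3, Pitx3, Otx2 and En1) summed to 3.43 to 57.5 CPM and 2.50 to 69.2 CPM, with medians of 7.83 and 8.83 CPM. Pitx3 was at 0 in a knockin library, and Slc6a3 alone was called, lower in knockin. The median log2 difference of the 4 midbrain genes was -0.81. With the midbrain level as a term of the model the same number of genes, 5, was called, Tph2 with -1.19 (adjusted p = 0.048, edgeR). Of the astrocyte list 3 of 4 genes were called lower as well. The part of these cells in the differences was not tested otherwise.

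The rest of the pathway was read from lists of 33 genes, of which 30 passed the filter on low counts in medulla at 28 weeks, with 7 called lower and 2 higher. Of all genes, 9.99% were called lower and 9.28% higher in the same comparison. Of the 7 genes of synthesis and cofactor supply, Gch1 fell by 1.95-fold (adjusted p = 0.0055), Ddc by 1.69-fold (0.046) and Qdpr, which recycles the cofactor, by 1.5-fold (2.9e-06), while Pts, a further cofactor enzyme, rose by 1.12-fold (0.0047), all edgeR. Qdpr is also made by many other cells, and its level, 547 CPM in wild type, was far above that of Tph2. Of the 4 genes of vesicle loading and uptake, Slc18a2 fell from 70.1 to 29.9 CPM (2.22-fold, adjusted p = 0.027) and Slc22a3 from 3.44 to 1.59 CPM (2.13-fold, adjusted p = 0.0046, edgeR). Aldh2, an aldehyde dehydrogenase of the breakdown list, rose by 1.19-fold (adjusted p = 0.044, edgeR). Of 10 receptor genes tested outside the 9, Htr5b fell from 17.0 to 2.03 CPM (8.81-fold, adjusted p = 0.00088) and Htr1d, another autoreceptor gene, from 3.14 to 1.88 CPM (1.66-fold, adjusted p = 0.00038, edgeR). None of the 5 further transcription factor genes tested and neither of the peptide genes Tac1 and Trh was called.

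**Figure D2:**
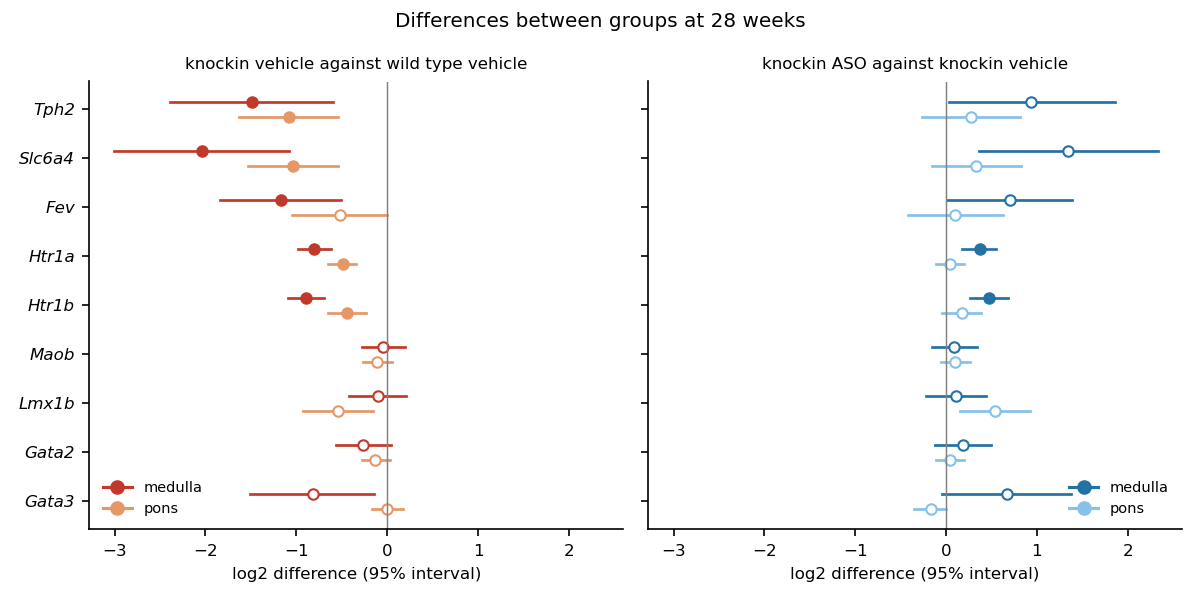
Log2 differences of the 9 genes at 28 weeks with approximate 95% intervals. The left panel shows vehicle-treated knockin against wild type (5 genes called in medulla and 4 in pons). The right panel shows ASO-treated against vehicle-treated knockin (2 in medulla and 0 in pons). Filled points have an adjusted p under 0.05 (edgeR). The points of both panels share the vehicle-treated knockin libraries. The intervals use the standard error and the normal distribution, and are narrower than the edgeR test implies. With the ASO in medulla those of Slc6a4 (0.36 to 2.33), Tph2 (0.03 to 1.86) and Fev (0.01 to 1.39) exclude 0 though none of these genes was called. Their unadjusted p-values are 0.015, 0.058 and 0.059 (edgeR).

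The transporter and the synthesis enzyme did not fall in step in medulla. The ratio of Slc6a4 to Tph2 counts within a library varied little between libraries that differed many-fold in either gene. In medulla at 28 weeks it ranged from 0.544 to 0.711 in wild type with a median of 0.627, from 0.344 to 0.474 in vehicle-treated knockin with a median of 0.436, and from 0.493 to 0.605 in ASO-treated knockin with a median of 0.546. The vehicle-treated knockin libraries thus lay below every library of the other groups. Of the libraries low in Hox genes, wild type replicate 5 stood at 0.643 and knockin vehicle replicate 8 at 0.454, while ASO replicates 3, 6 and 7 stood at 0.571, 0.605 and 0.592, all above the median of their group. Knockin was lower than wild type by a log2 ratio of -0.54, with -0.59 in batch 1 and -0.50 in batch 2 (exact two-sided permutation test within batches, p = 0.00041, the smallest it can give, and adjusted p = 0.0025 over 18 ratio tests, n = 8 and 8). Without the libraries low in Hox genes the difference was -0.55 (exact permutation p = 0.0014). ASO-treated knockin was higher than vehicle-treated knockin by 0.37, with 0.30 in batch 1 and 0.45 in batch 2 (exact permutation p = 0.00041, adjusted p = 0.0025, n = 7 and 8), in a comparison that uses the same vehicle libraries and was added after the first was seen. Without the libraries low in Hox genes it was 0.29 (exact permutation p = 0.021). Leaving out any single library kept both differences, which ranged from -0.57 to -0.50 and from 0.33 to 0.40.

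In pons at 28 weeks the same ratio was 0.622 to 0.681 in wild type, 0.635 to 0.746 in vehicle-treated knockin and 0.673 to 0.786 in ASO-treated knockin, and the groups overlapped. Knockin differed from wild type by a log2 ratio of 0.06 (exact two-sided permutation p = 0.4, n = 4 and 4). The genotype difference in pons less that in medulla was 0.60. The 8 pons libraries carry the same numbers in their column names as the medulla libraries of batch 1, so libraries that share a number were permuted together (exact two-sided permutation p = 0.00041, the smallest it can give, adjusted p = 0.0025 over 18 tests). When the tissues were permuted independently p was 0.0001 (adjusted 0.0018, exact permutation). Both shuffle genotype in each tissue, so they test for no effect in either tissue, and the effect in medulla alone can give a small p. With medulla batch 1 alone the difference was 0.64 (exact permutation p = 0.029, the smallest it can give). This version compares the difference within each number between genotypes, and so asks whether the effects were equal, if a shared number pairs libraries. All 3 tests were added after the data were seen. At 18 weeks, with 3 libraries a group, where the smallest possible p is 0.1, the ratio differed between knockin and wild type by -0.14 in medulla (exact permutation p = 0.3) and -0.30 in pons (p = 0.2).

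**Figure D3:**
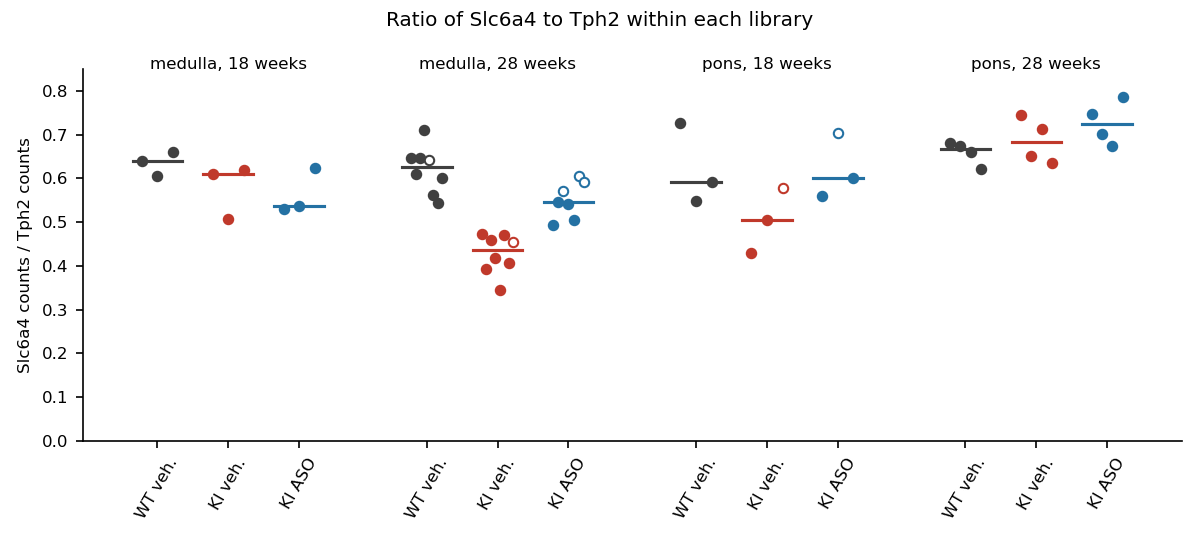
Counts of Slc6a4 divided by counts of Tph2 in each library of medulla and pons, by age and group, with bars at the medians and open points for the libraries low in Hox genes. In medulla at 28 weeks all 8 vehicle-treated knockin libraries, at 0.344 to 0.474, lie below the wild type and the ASO-treated libraries, whose lowest values are 0.544 and 0.493.

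The ratio of Fev to Tph2 moved the other way. In pons at 28 weeks it was 0.0261 to 0.0337 in wild type and 0.0408 to 0.0448 in vehicle-treated knockin, without overlap, a log2 difference of 0.56 (exact permutation p = 0.029, the smallest that 4 against 4 can give, adjusted p = 0.1). In medulla the difference was 0.40 (exact permutation p = 0.027, adjusted p = 0.1), with overlapping groups, and 0.37 without the libraries low in Hox genes (exact permutation p = 0.057). Neither passed after adjustment over the 18 ratio tests. Leaving out knockin vehicle replicate 1, 2 or 5 or wild type replicate 5 or 7 in medulla gave 0.28 to 0.47 over all libraries left out and exact permutation p-values up to 0.067, and leaving out knockin vehicle replicate 3 in pons gave 0.53 (p = 0.057).

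The ASO comparison asks whether lowering Atxn1 changes these genes in knockin mice. In medulla at 28 weeks ASO-treated knockin differed from vehicle-treated knockin in the receptor genes alone among the 9, Htr1b with a rise of 1.39-fold and Htr1a with one of 1.29-fold, where 1.3% of all genes were called higher, 0.386% lower and 1.69% in either direction. Htr1b ranged from 11.8 to 18.1 CPM with a median of 15.1 CPM in ASO-treated knockin, against 7.80 to 13.5 CPM in vehicle-treated knockin (log2 difference 0.47 ± 0.11, adjusted p = 0.021, edgeR). The library labelled ASO replicate 2, whose Atxn1 level goes against its label, held that lowest value. Htr1a ranged from 17.2 to 21.6 CPM with a median of 19.4 CPM, against 10.1 to 17.8 CPM (log2 difference 0.37 ± 0.09, adjusted p = 0.046, edgeR). For both genes all 7 ASO libraries stayed below the wild type median.

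Tph2 ranged from 25.2 to 147 CPM in ASO-treated knockin medulla, with a median of 32.3 CPM against 21.3 CPM with vehicle, and Slc6a4 from 12.9 to 88.8 CPM with a median of 18.1 CPM. The highest values of both genes came from ASO replicates 6 and 7, the libraries with the lowest Hox levels of that group. The log2 differences were 0.94 ± 0.47 for Tph2 (adjusted p = 0.44) and 1.34 ± 0.50 for Slc6a4 (adjusted p = 0.24, edgeR), and without the libraries low in Hox genes 0.08 and 0.34. Fev differed by 0.70 ± 0.35 (adjusted p = 0.44, edgeR) and by 0.01 without those libraries. Lmx1b (0.11), Gata2 (0.19), Gata3 (0.67) and Maob (0.09) were not called.

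Both receptor calls were lost without the 5 libraries low in Hox genes (Htr1b 0.48, adjusted p = 0.16, and Htr1a 0.40, adjusted p = 0.2), in batch 1 alone (0.58, adjusted p = 0.35, and 0.41, adjusted p = 0.42) and in batch 2 alone (0.36, adjusted p = 0.19, and 0.32, adjusted p = 0.17, edgeR), with differences of similar size. The Htr1b call was also lost without ASO replicate 3 (adjusted p = 0.056) or 4 (0.057), and the Htr1a call without any of 17 of the 23 libraries, among them all 8 wild type libraries, whose spread the model shares, ASO replicates 1 and 3 to 7, and knockin vehicle replicates 3, 5 and 8 (adjusted p from 0.051 to 0.11, edgeR). Of the 30 other pathway genes tested, Qdpr was called, at 474 CPM with ASO and 364 CPM with vehicle (1.3-fold, adjusted p = 0.005, edgeR), and no gene was called lower. Of all genes, 1.3% were called higher and 0.386% lower. The astrocyte markers Aqp4 and Gja1 rose in the same comparison, and the astrocyte list summed to 937 to 1790 CPM with ASO and 773 to 1430 CPM with vehicle.

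In pons at 28 weeks 4 of the 9 genes were lower in vehicle-treated knockin than in wild type and none was higher, where 5.65% of all genes were called lower, 4.14% higher and 9.79% in either direction. Tph2 and Slc6a4 fell by about as much as each other, 2.12-fold and 2.05-fold, and Htr1a and Htr1b fell by 1.41-fold and 1.36-fold. The median log2 difference of the 9 genes was -0.49.

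Tph2 stood at 268, 206, 194 and 185 CPM in the wild type pons libraries and at 97.3, 71.3, 96.5 and 138 CPM in the vehicle-treated knockin libraries. Every knockin library lay below every wild type library, with a log2 difference of -1.08 ± 0.28 (adjusted p = 0.039, edgeR). How many of all genes separate these groups in this way was not counted. Slc6a4 stood at 183, 139, 129 and 115 CPM in wild type and 72.6, 46.5, 68.8 and 87.6 CPM in knockin, also without overlap (log2 difference -1.04 ± 0.25, adjusted p = 0.033, edgeR). Htr1a stood at 33.2, 28.5, 28.0 and 28.1 CPM in wild type and 20.2, 21.1, 22.6 and 19.7 CPM in knockin (log2 difference -0.49 ± 0.08, adjusted p = 0.0021, edgeR). Htr1b stood at 18.6, 18.2, 18.3 and 18.3 CPM and at 15.7, 13.4, 13.9 and 11.2 CPM (log2 difference -0.44 ± 0.11, adjusted p = 0.024, edgeR).

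Lmx1b, needed for the upkeep of serotonergic neurons, was at 11.4, 10.2, 12.4 and 9.45 CPM in wild type pons and 8.30, 6.06, 8.05 and 7.44 CPM in knockin, without overlap, yet missed the threshold (log2 difference -0.54 ± 0.20, adjusted p = 0.1, edgeR). Fev differed by -0.52 ± 0.27 (adjusted p = 0.24, edgeR), with 5.33 to 7.41 CPM in wild type and 2.97 to 5.63 CPM in knockin. Gata3 was level, at 13.7 and 13.8 CPM on average (95% interval of the log2 difference -0.17 to 0.18), and Gata2 (-0.28 to 0.03) and Maob (-0.27 to 0.05) were not called either.

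In pons, Htr1a was called in every other setting tried, while Tph2 and Slc6a4 missed the threshold with the Hox level as a term of the model (-0.92, adjusted p = 0.07, and -0.90, adjusted p = 0.072, edgeR) and when 8 of the 12 libraries were left out singly. Without knockin vehicle replicate 1, 2 or 3, any of the 4 wild type libraries, or ASO replicate 2, the adjusted p of Tph2 lay between 0.058 and 0.11 and its log2 difference between -1.15 and -0.95, and that of Slc6a4 between 0.05 and 0.089 with -1.13 to -0.89 (edgeR). Htr1b was lost without knockin vehicle replicate 2 or 3 or wild type replicate 1 or 4 (adjusted p from 0.051 to 0.07, edgeR), and Lmx1b was called without ASO replicate 4 (adjusted p = 0.033), from the pair of groups alone (0.013) and by DESeq2 (adjusted p = 0.023). The dopamine transporter gene Slc6a3, a marker of midbrain dopamine neurons, was at 124, 46.1, 110 and 11.0 CPM in the wild type pons libraries and 6.26 to 14.6 CPM in the knockin libraries. With the midbrain level as a term of the model the same number of genes, 4, was called, Tph2 with -1.3 (adjusted p = 0.034, edgeR). The midbrain list summed to 27.6 to 143 CPM in wild type and 18.5 to 40.5 CPM in knockin. The noradrenergic markers Dbh and Slc6a2 fell by 5.78-fold (adjusted p = 1.1e-08) and 5.93-fold (adjusted p = 1.6e-08, edgeR), and the motor neuron list summed to 53.5 to 86.0 CPM in wild type and 27.2 to 36.4 CPM in knockin. The astrocyte list summed to 945 to 1130 CPM and 658 to 875 CPM, with 1 of 4 genes called lower, and the endothelial list to 132 to 147 CPM and 111 to 116 CPM, also with 1 of 4 called lower. The part of these cells in the results was not tested otherwise.

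Of 31 other pathway genes tested in pons, 9 were called lower and none higher, where 5.65% of all genes were called lower and 4.14% higher. Slc18a2 fell from 194 to 92.3 CPM (2.10-fold, adjusted p = 0.031), Gch1 from 19.2 to 10.8 CPM (1.77-fold, adjusted p = 0.017) and Slc22a3 from 6.13 to 4.10 CPM (1.49-fold, adjusted p = 0.034, edgeR). Qdpr (1.45-fold), Slc29a4, a further monoamine transporter (1.27-fold), and Maoa, the other monoamine oxidase (1.18-fold), fell too. Among receptors Htr1d fell from 3.44 to 1.8 CPM (1.91-fold, adjusted p = 0.0017), Htr5b by 1.88-fold (adjusted p = 0.0066) and Htr2a by 1.32-fold (adjusted p = 0.036, edgeR). Gch1, Qdpr, Slc18a2, Slc22a3, Htr1d and Htr5b were thus called lower in both medulla and pons. The share of all genes called lower in both tissues was not counted.

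With the ASO, none of the 9 genes was called in pons at 28 weeks, where 0.0929% of all genes were (0.0831% higher and 0.00978% lower). Of the 9, Lmx1b alone had an unadjusted p under 0.05 in edgeR, as did 14.6% of all genes, and DESeq2 called 0 of the 9. Tph2 was at 89.1, 123, 185 and 87.1 CPM with ASO, a log2 difference of 0.27 (95% interval -0.27 to 0.81), and Slc6a4 at 66.7, 86.2, 125 and 68.4 CPM (0.33, 95% interval -0.16 to 0.82). Lmx1b was at 9.19, 12.3, 14.8 and 7.01 CPM (log2 difference 0.54 ± 0.20, adjusted p = 0.24, edgeR), and its highest values came from replicate 3 and from the library labelled ASO replicate 2. Htr1a and Htr1b differed by 0.04 (95% interval -0.11 to 0.20) and 0.17 (95% interval -0.04 to 0.38).

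The knockin effect in pons was compared with that in medulla gene by gene, and none of the 9 genes differed between tissues after adjustment, where 0.0184% of all genes did (0.00921% in each direction). The model treats libraries of both tissues that share a number as independent. Htr1a and Htr1b had an unadjusted p under 0.05, as did 8.07% of all genes, with a smaller fall in pons by 0.30 ± 0.14 (adjusted p = 0.61) and 0.44 ± 0.17 (adjusted p = 0.48, edgeR) on the log2 scale. For Slc6a4 the difference was 1.01 ± 0.69 (adjusted p = 0.77, edgeR).

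At 18 weeks no member of the 9 was called in medulla or pons in either comparison, where 0% of all genes were called by edgeR and DESeq2 called 0 of the 9 genes as well. At an unadjusted p under 0.05 there was 1 of the 9 (Maob) between knockin and wild type medulla, and there were 2 (Gata2 and Gata3) between knockin and wild type pons and 2 (Fev and Htr1a) between ASO and vehicle in pons. The shares of all genes at that threshold were 5.74%, 12.2% and 6.29%, and 4.64% for the ASO in medulla, where none of the 9 passed it. Tph2 in medulla was at 27.2, 65.8 and 36.9 CPM in the libraries labelled wild type and 34.4, 11.4 and 37.2 CPM in vehicle-treated knockin, with overlapping groups (log2 difference -0.65 ± 0.54, adjusted p = 0.91, edgeR). In pons it was at 25.2, 41.2 and 162 CPM in the libraries labelled wild type, 11.7, 13.8 and 31.9 CPM in vehicle-treated knockin, and 164, 11.8 and 53.9 CPM in those labelled ASO. The high values were those of the library labelled wild type replicate 3, whose Atxn1 level goes against its label, and of ASO replicate 1. Their Hox levels were 0.51 and 0.52. In pons at 18 weeks 2 libraries were low in Hox genes, knockin vehicle replicate 3 at -0.54 and the library labelled ASO replicate 2 at -0.92. The log2 difference between knockin and wild type was -1.98 ± 1.09 (adjusted p = 0.46, edgeR), and its 95% interval, -4.12 to 0.15, holds both 0 and the -1.08 measured at 28 weeks. Without the library labelled wild type replicate 3 it was -0.78 (adjusted p = 0.77, edgeR), and without knockin vehicle replicate 3 it was -2.56. Slc6a4 in pons was at 18.3, 22.6 and 95.9 CPM in the libraries labelled wild type and 5, 6.97 and 18.4 CPM in knockin (log2 difference -2.16 ± 1.07, adjusted p = 0.43, edgeR), and -0.99 without the library labelled wild type replicate 3.

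**Figure D4:**
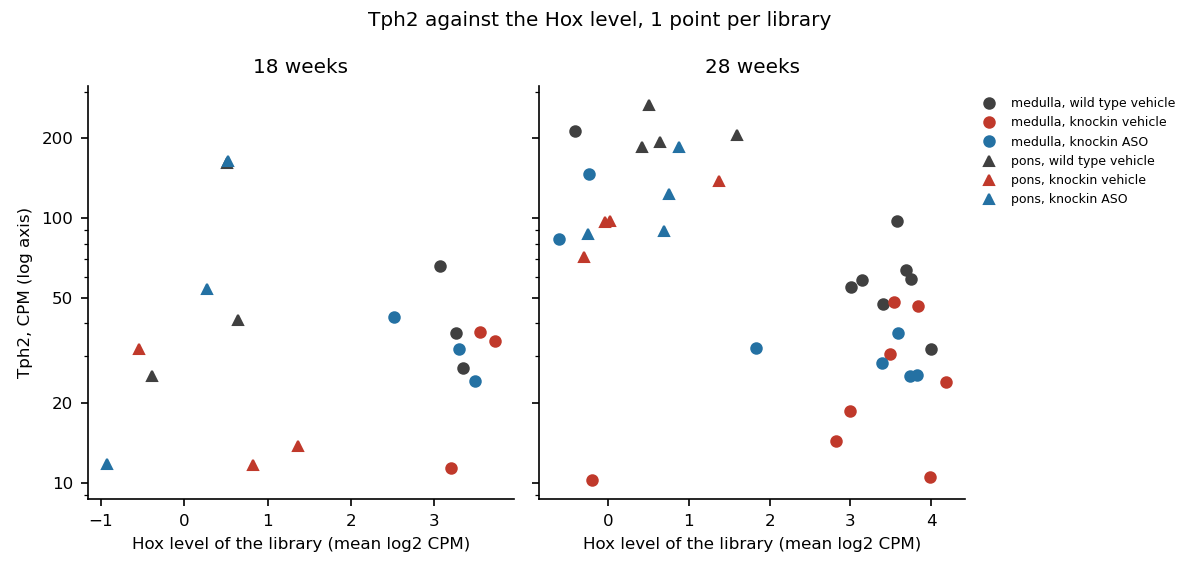
Tph2 in CPM, on a log axis, against the Hox level (mean log2 CPM of Hox genes) of each medulla (circles) and pons (triangles) library at 18 and 28 weeks, coloured by group. At 28 weeks 3 medulla libraries with Hox levels near those of pons hold 83.4 to 214 CPM of Tph2, while knockin vehicle replicate 8, with a Hox level of -0.20, holds 10.2 CPM; at 18 weeks the points at 162 and 164 CPM in pons lie over each other.

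In cerebellum at 18 weeks Htr1b was the only one of the 9 genes called between vehicle-treated knockin and wild type, where 2.06% of all genes were called lower and 2.71% in either direction. It stood at 25.2, 25.2, 28.2 and 24.3 CPM in wild type and 17.8, 14.5, 17.0 and 18.1 CPM in knockin, a 1.52-fold fall without overlap (log2 difference -0.61 ± 0.11, adjusted p = 0.011, edgeR). In ASO-treated knockin it was at 18.1, 17.2, 14.3 and 20.7 CPM, a difference of 0.06 from vehicle (95% interval -0.15 to 0.27). Purkinje cell markers moved with it, since Car8, Calb1 and Ppp1r17, 3 of the 4 listed, fell by 1.67-fold, 1.61-fold and 1.56-fold (edgeR), and the part of these cells in the Htr1b result was not tested. Htr1b missed the threshold without the libraries low in Hox genes, at -0.62 (adjusted p = 0.1, edgeR), in a tissue where the Hox level, -4.51 to -2.04, is near the floor of detection. Gata3 was at 0.128 to 2.43 CPM in knockin and 0 to 0.0894 CPM in wild type cerebellum, without overlap and without a call (adjusted p = 0.12, edgeR), although DESeq2 called it. With the ASO 0 of the 9 genes were called where 0.0491% of all genes were, 0 had an unadjusted p under 0.05 in edgeR (7.65% of all genes did), and DESeq2 called 0.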

How the data were processed

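RNA-seq reads were counted per gene by the authors, who deposited raw counts for 65 libraries. CASAVA 1.8, HISAT2 2.0.2, featureCounts (Subread), DESeq2 1.14.1, R 3.3.3 and GRCm38 are named per the submitters' processing notes, without their order. Of values from 1 to 20, 70.0 to 78.6% per library were even. Ensembl IDs were mapped to symbols with the reference tables, and 49411 of 49670 matched. Each tissue and age was fitted with its 3 groups in edgeR 4.0.16 (R 4.3.3; TMM scaling, genes kept by filterByExpr with a count minimum of 10, robust quasi-likelihood test, batch as a term in medulla at 28 weeks), with Benjamini-Hochberg adjustment over all genes tested and calls at 0.05. DESeq2 1.42.0 was an alternative. Levels are CPM with TMM over all libraries. The 95% intervals were computed from the log2 difference and its standard error with the normal distribution, and are approximate. Exact permutation tests of log2 count ratios (pseudocount 0.5) permuted within batch. Hox levels used 15 genes in medulla, 11 or 12 in pons and 5 in cerebellum. The model was tested on simulated data. The genes and lists were chosen with earlier results of these data known. Of other pathway genes, up to 3 of smallest adjusted p per list and comparison were named, and Ddc was added after its values were seen. Same-numbered wild type pons and medulla libraries at 28 weeks carry the same number in their column names. The alternatives included leaving out each library, the replicate number as a block, and leaving out libraries low in Hox genes.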

Additional observations from a re-analysis of the deposited data

Results flagged for a closer look

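Within groups of 4 to 10 libraries, 11 of 99 groups tested held a value whose gap to the nearest other exceeded Dixon's 95% limit, and chance gives about 1 in 20. In medulla at 28 weeks wild type replicate 5 stood apart with a Hox level of -0.41 (the others 3.01 to 4.0), 214 CPM of Tph2 (31.9 to 97.3), 137 CPM of Slc6a4 (17.9 to 58.4) and 13.8 CPM of Gata3 (2.44 to 6.73). Knockin vehicle replicate 8 stood apart with a Hox level of -0.20 (2.82 to 4.18), and knockin vehicle replicate 2 with 69.6 CPM of Maob (35.1 to 49.9). In pons at 28 weeks wild type replicate 1 held 33.2 CPM of Htr1a (28.0 to 28.5). In cerebellum Slc6a4 was at 1.47 CPM in ASO replicate 4 (0.162 to 0.182) and 1.51 CPM in knockin vehicle replicate 4 (0.0513 to 0.125), Gata3 at 2.43 CPM in knockin vehicle replicate 4 (0.128 to 0.432), and Fev at 0.308 CPM in knockin vehicle replicate 3 (0.147 to 0.159).

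The knockin effect on the ratio of Slc6a4 to Tph2 differed between pons and medulla at 28 weeks by 0.60 on the log2 scale (libraries that share a number permuted together, exact permutation p = 0.00041, adjusted p = 0.0025). That test shuffles genotype in both tissues, so it does not test for equal effects. With medulla batch 1 alone, where the difference within each number was permuted, it was 0.64 (exact permutation p = 0.029, the smallest it can give).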

How the results depend on the processing

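The number of the 9 genes called moved as follows. Between knockin and wild type it was 1 in cerebellum, 0 without the libraries low in Hox genes and 2 with DESeq2. It was 5 in medulla at 28 weeks, 6 with the Hox level as a term (Gata3 added), 3 in batch 1 alone and 2 in batch 2 alone. It was 4 in pons at 28 weeks, 2 with no filter, 2 with the Hox level as a term and 2 without the library labelled ASO replicate 2. In the ASO comparison in medulla it was 2, then 1 with no filter, 1 with the midbrain level, 1 without the batch term, and 0 with 2 groups alone, in batch 1, in batch 2 or without the libraries low in Hox genes. Between wild type pons and medulla it was 0 at 28 weeks, 6 without the library low in Hox genes and 9 in medulla batch 1 with or without the number in the column names as a block. The calls over all genes in the batch 1 fits are not given here. At 18 weeks the number of the 9 genes called was 1, and 0 without replicate 3 or without the libraries low in Hox genes. With the replicate block it was 1 in pons at 28 weeks, 1 in the ASO comparison in medulla, 9 between wild type tissues at 28 weeks and 0 at 18 weeks. At 18 weeks that block also tied cerebellum libraries to medulla and pons libraries with other numbers in their column names, so it is no clean check of the Gata3 call. Tph2 in medulla gave -1.68 (adjusted p = 0.055, edgeR), and the replicate numbers of different groups did not pair libraries (correlations of deviations from -0.28 to 0.23). Leaving out single libraries gave 4 to 5 genes in medulla and 1 to 5 in pons for knockin against wild type, 0 to 2 for the ASO in medulla, 0 to 6 and 0 to 1 between wild type pons and medulla at 28 and 18 weeks, and 8 to 9 for cerebellum against either. Calls over all genes moved in those fits too. For knockin against wild type they ran from 3182 to 5411 in medulla and from 831 to 4259 in pons. They ran from 191 to 611 for the ASO in medulla. Between wild type pons and medulla they ran from 270 to 3487 at 28 weeks and from 93 to 482 at 18 weeks. The ratio of Fev to Tph2 in medulla gave 0.37 without the libraries low in Hox genes (exact permutation p = 0.057) and 0.28 to 0.47 without single libraries, and in pons 0.52 to 0.64. Signs turned for differences near 0. Between knockin and wild type these were Maob in medulla (0.04 with the midbrain level, 0.16 in batch 1, 0.06 without the libraries low in Hox genes, -0.18 to 0.03 without single libraries), Lmx1b in medulla (-0.18 to 0.01) and Gata3 in pons (-0.00 with RLE scaling, with DESeq2 and without ASO replicate 2, -0.01 with no filter, -0.04 with the Hox level, -0.08 to 0.06 without single libraries). For the ASO in medulla they were Lmx1b (-0.05 in batch 2), Maob (-0.13 in batch 1, -0.01 without the libraries low in Hox genes), Gata2 (-0.03) and Gata3 (-0.08) without those libraries. For the ASO in pons they were Fev (-0.08) and Gata2 (-0.00) with the midbrain level, and Tph2 (-0.01 to 0.47), Fev (-0.16 to 0.28) and Htr1a (-0.00 to 0.10) without single libraries. Calls over all genes moved too: knockin against wild type in medulla at 28 weeks gave 3944, and 644 in batch 1; the ASO in medulla gave 346, and 0 in batch 1, 162 with 2 groups alone and 28 without the libraries low in Hox genes. The cause was not tested. Slc6a4, Fev, Htr1a and Gata3 were among the genes below 1 CPM in wild type cerebellum, where Gata3 reached 0. How far depth limits such genes was not tested.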
